A study of Mus musculus with 78 samples.

Results

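The genes described here are 48 genes of the cell cycle and of DNA replication, measured in mouse liver. They were chosen by name from a list of 49. The gene for cyclin B1 (Ccnb1) had no probe set under that symbol, and the 48 others stand among 19938 genes on the array. By role, 15 act in replication: 10 license origins or form the helicase (Mcm2 to Mcm7, Mcm10, Cdc6, Cdt1, Gins1) and 5 serve the fork and the supply of nucleotides (Pcna, Rrm1, Rrm2, Tyms, Tk1). The other 33 begin with the cyclin genes Ccna2, Ccnb2, Ccne1 and Ccne2 and the kinase gene Cdk1. Cdc20 and Ube2c work with the anaphase-promoting complex, and Plk1, Aurka, Aurkb, Bub1, Bub1b, Ttk and Melk encode mitotic kinases. Birc5 and Cdca8 belong to the chromosomal passenger complex, and Cenpe, Cenpf, Ndc80 and Nuf2 to the kinetochore. Kif11, Kif20a, Kif23, Nusap1, Prc1, Tpx2, Racgap1 and Ect2 build the spindle or divide the cell, and Foxm1, Mki67, Top2a, Hells and Uhrf1 act in transcription or chromatin. Where a gene had several probe sets (Tk1, Top2a and Pcna), the one with the highest mean over all arrays was used, and whether each reads only its own gene was not tested.

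Cells that leave quiescence first switch on the genes that load the MCM helicase onto origins and copy DNA, largely under E2F factors. The genes that build the spindle and divide the cell follow, largely under B-Myb and FoxM1. In quiescent cells the DREAM complex represses such genes. Most hepatocytes divide in the weeks around birth and are quiescent in the adult liver. In the newborn the liver also holds dividing blood cell precursors, and macrophages can divide in the adult.

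Liver RNA of 78 female mice was hybridised to an Affymetrix array, 1 array per mouse, and the values are log2 expression. The age series held 48 littermates of the BALB/cNctr-Npc1m1N/J line, 4 Npc1-/- and 4 Npc1+/+ animals at each of 6 ages, every other week from 1 week to 11 weeks. Npc1 encodes a lysosomal cholesterol transporter and its loss models Niemann-Pick disease type C. The other set held 30 BALB/cJ mice aged 12 weeks in 6 groups of 5: Npc1 antisense oligo, control oligo, both of these with N-acetyl-cysteine (NAC, an antioxidant), fasted and untreated. The fasted mice had no food overnight. Oligos, and NAC where given, covered the last 4 weeks before the livers were taken at 12 weeks. The Npc1-/- mice lack the gene's function in every cell from conception, while the oligo was given only to adults. The livers of the 12-week set were frozen or kept in RNAlater, and the part of storage in the results was not tested. Values below are log2 levels, and differences are log2 differences ± SE from limma, with n = 4 or 5 mice a group. A gene is said to have risen or fallen where its Benjamini-Hochberg adjusted p over all 19938 genes was under 0.05.

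Array medians ran from 5.35 to 5.65, and hepatocyte markers averaged 12.51 to 12.84 in every group. Single markers differed. Averaged over the ages, Hnf4a (-0.30 ± 0.04, adjusted p = 6.62e-08) and Fgb (-0.10 ± 0.03) were lower in Npc1-/- liver. Alb, Apoa1, Apob, Tat and Ttr did not pass there. The Npc1 oligo raised Hnf4a (0.37 ± 0.07, adjusted p = 0.000521), while Alb, Apoa1, Apob and Fgb did not pass. Npc1 was lower in Npc1-/- than in Npc1+/+ liver at all 6 ages, by 1.11 to 1.72. Under the Npc1 oligo it was 7.16, 6.96, 7.25, 7.55 and 7.34, against 10.36, 9.98, 10.25, 10.22 and 10.27 under the control oligo. In the mice given NAC with the control oligo it was 9.21, 9.96, 8.77, 9.04 and 8.96, below every mouse given the control oligo alone. Pancreas markers stood high on the arrays of Npc1+/+ mice 1 and 2 at 3 weeks (means of 7 genes 9.02 and 8.99). Muscle markers stood high on that of Npc1-/- mouse 3 at 1 week (mean of 10 genes 8.97). These are the arrays called below those with pancreas or muscle signal. Smaller pancreas signal was seen in Npc1-/- mouse 2 at 1 week (6.79). At 5 weeks it was seen in Npc1-/- mouse 4 (6.42) and Npc1+/+ mouse 1 (6.80). The arrays with this smaller signal were kept in all such fits. The array values carry no detection calls. The median of all values was 5.54, and at 11 weeks 34 of the 48 genes had a mean below it in Npc1-/- liver, so small differences of such genes may be understated. In RNA from whole liver, fewer cells of a type and less RNA per cell cannot be told apart.

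The promoters were searched for the letters of motifs known for the factors named above. RefSeq windows of 250 bases before and 50 after the start (GRCm38.p6) were found for 41 of the 49 genes, 45 windows in all. Both strands were searched for the CHR element of DREAM, B-Myb and FoxM1 (TTTGAA or TTTAAA), the CCAAT box of NF-Y, and an E2F site (TTTNNCGC). Matches may overlap. CHR letters stood in 28.6% of the 14 windows of replication genes, in 80.6% of the 31 windows of the other genes and in 27.6% of all 32851 promoter windows. E2F letters stood in 50.0% of the replication windows, 16.1% of the others and 5.2% of all promoters. The CCAAT box was found in 71.4%, 77.4% and 37.4% in the same order of sets. The 4 windows printed here hold all 3 motifs, in capitals. They are Cdk1 on the minus strand of chr10:69352863-69353162, Mcm5 on the plus strand of chr8:75109259-75109558, Racgap1 on the minus strand of chr15:99651607-99651906 and Uhrf1 on the plus strand of chr17:56304063-56304362. In the Mcm5 window 2 overlapping E2F matches, one on each strand, run together.
Cdk1: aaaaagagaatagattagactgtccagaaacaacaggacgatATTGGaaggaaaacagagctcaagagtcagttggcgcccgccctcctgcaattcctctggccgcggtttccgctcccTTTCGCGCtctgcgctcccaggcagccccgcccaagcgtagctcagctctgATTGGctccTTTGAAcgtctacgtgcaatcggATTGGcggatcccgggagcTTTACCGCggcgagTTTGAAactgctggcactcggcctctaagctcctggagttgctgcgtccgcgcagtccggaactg
Mcm5: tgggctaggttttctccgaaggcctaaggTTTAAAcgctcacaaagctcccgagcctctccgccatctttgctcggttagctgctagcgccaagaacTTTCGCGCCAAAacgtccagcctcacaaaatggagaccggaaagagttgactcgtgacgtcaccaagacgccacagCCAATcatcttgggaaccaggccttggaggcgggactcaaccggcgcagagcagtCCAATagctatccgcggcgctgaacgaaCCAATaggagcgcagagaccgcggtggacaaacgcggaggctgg
Racgap1: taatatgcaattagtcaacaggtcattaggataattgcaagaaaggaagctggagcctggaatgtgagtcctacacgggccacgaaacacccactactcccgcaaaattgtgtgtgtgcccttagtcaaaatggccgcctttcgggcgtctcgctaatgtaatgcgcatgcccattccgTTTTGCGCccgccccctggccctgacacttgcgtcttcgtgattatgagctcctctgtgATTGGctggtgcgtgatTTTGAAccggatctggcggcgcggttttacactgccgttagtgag
Uhrf1: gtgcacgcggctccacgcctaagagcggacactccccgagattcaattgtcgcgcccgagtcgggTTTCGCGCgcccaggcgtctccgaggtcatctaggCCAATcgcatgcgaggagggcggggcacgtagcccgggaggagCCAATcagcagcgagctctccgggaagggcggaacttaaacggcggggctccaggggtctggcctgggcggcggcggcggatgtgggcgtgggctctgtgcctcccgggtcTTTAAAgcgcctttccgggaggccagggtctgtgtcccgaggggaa

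**Figure D1:**
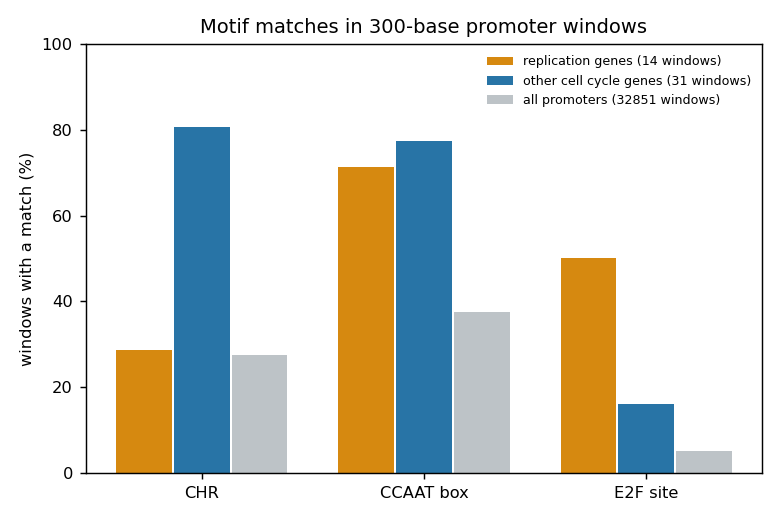
Share of promoter windows (y axis, percent) with a match to the CHR element, the CCAAT box and an E2F site, for replication genes, other cell cycle genes and all promoters. CHR letters are in 80.6% of the windows of the other genes and 28.6% of those of replication genes, and E2F letters in 16.1% and 50.0%.

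The livers of 1-week-old pups held by far the most of these transcripts. For 38 of the 48 genes the highest of all 18 group means was that of 1-week Npc1-/- liver and for 8 that of 1-week Npc1+/+ liver. The exceptions were Mcm10, highest in 5-week Npc1+/+ liver, and Tk1, highest in 9-week Npc1+/+ liver. The mean of all 48 genes in Npc1-/- liver was 7.13, 5.85, 5.75, 5.38, 5.49 and 5.15 from the youngest to the oldest mice. In Npc1+/+ liver it was 6.97, 5.53, 5.39, 5.22, 5.22 and 5.25 in the same order.

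**Figure D2:**
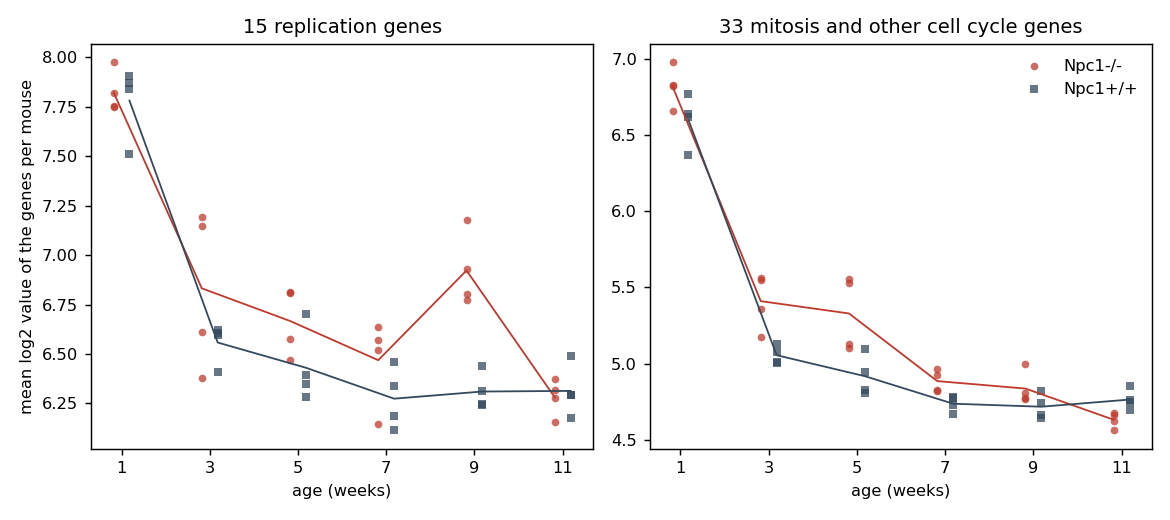
Mean log2 value per mouse (y axis) of the 15 replication genes and of the 33 other genes against age in weeks, with each mouse as a point and group means joined. Both sets are highest at 1 week, and at 9 weeks the 4 Npc1-/- mice have replication means of 6.78 to 7.18 against 6.24 to 6.44 in the Npc1+/+ mice.

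Between 1 and 3 weeks nearly every gene fell in both genotypes. In Npc1-/- liver 46 of 48 fell, with a median difference of -1.26, where 6.69% of all genes rose and 10.6% fell (17.3% in all). In Npc1+/+ liver 47 fell, with a median of -1.43, where 9.31% of all genes rose and 15.0% fell (24.3% in all). Cyclin A2 (Ccna2), which drives S phase and entry into mitosis, fell by 2.30 ± 0.16 in Npc1-/- liver (adjusted p = 6.59e-16) and by 2.34 ± 0.16 in Npc1+/+ liver (adjusted p = 2.17e-16). Top2a, the topoisomerase that untangles replicated chromosomes, was 6.09, 6.43, 6.86 and 7.01 in the 3-week Npc1-/- mice, against 8.72, 8.73, 8.74 and 8.37 at 1 week. In Npc1+/+ mice it was 5.69, 5.84, 5.93 and 5.90 at 3 weeks, against 8.51, 8.31, 8.60 and 8.55 at 1 week. No 3-week mouse of either genotype reached a 1-week mouse. The change with age differed between the genotypes for 0 of the 48 genes in limma (3 at an unadjusted p under 0.05), where 0.993% of all genes passed, 0.742% with a positive and 0.251% with a negative difference. Over the same weeks the erythroid markers, of which 7 of 12 were on the array, fell in 6 of 7 in both genotypes, and fetal liver markers in 5 of 5. The part of blood cell precursors in the fall was not tested.

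At 1 week Kif11 was the 1 gene of the 48 to pass between the genotypes (2.08%), where 3.21% of all genes passed, 1.72% higher and 1.50% lower. Kif11, the motor that pushes spindle poles apart, was 7.09, 7.01, 6.90 and 6.54 in Npc1-/- pups, against 6.34, 6.21, 6.69 and 6.36 in Npc1+/+ pups. The groups overlap in 1 mouse of each, and the difference was 0.49 ± 0.12 (adjusted p = 0.00939). Of the 33 genes outside replication 31 had a positive difference, with a median of 0.24, while replication genes had a median of 0.02. The median over all genes was -0.01. The per-mouse means of the 33 genes overlapped between the genotypes. They were 6.82, 6.82, 6.98 and 6.65 in Npc1-/- pups, against 6.62, 6.37, 6.77 and 6.64 in Npc1+/+ pups. The 33 genes were read in the same mice, so their signs are not separate observations. Mki67, the proliferation marker Ki-67, was 8.73, 8.79, 9.00 and 8.59 in Npc1-/- pups, against 8.22, 8.16, 8.10 and 8.60 in Npc1+/+ pups, and its difference of 0.51 ± 0.16 did not pass (adjusted p = 0.0664). With only the 1-week mice in the fit Mki67 passed (adjusted p = 0.0414) and Kif11 did not (adjusted p = 0.0728). The count was 0 without Npc1-/- mouse 1 and without Npc1+/+ mouse 2, and 2 without Npc1-/- mouse 4, without Npc1+/+ mouse 4, or without both Npc1+/+ mice 3 and 4, which had been numbered apart from mice 1 and 2 in their original names.

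At 3 weeks the livers of Npc1-/- mice held more transcript of Ki-67 and of several spindle and chromatin genes. Of the 48 genes 10 rose and 0 fell (20.8%), where 8.98% of all genes passed, 5.21% higher and 3.77% lower. The median difference was 0.34, against -0.01 over all genes. Mki67 was 6.68, 7.00, 6.87 and 7.27 in Npc1-/- mice, against 5.90, 5.99, 5.98 and 6.12 in Npc1+/+ mice. Every Npc1-/- mouse lay above every Npc1+/+ mouse, with a difference of 0.96 ± 0.16 (adjusted p = 2.71e-05). Next came Uhrf1, which guides maintenance of DNA methylation at the fork (0.79 ± 0.19), Top2a (0.76 ± 0.17), the central spindle bundler Prc1 (0.72 ± 0.16) and the cytokinesis exchange factor Ect2 (0.68 ± 0.20). The sliding clamp Pcna was 8.49, 8.89, 9.50 and 9.27 in Npc1-/- mice, against 8.61, 8.47, 8.44 and 8.70 in Npc1+/+ mice, a difference of 0.48 ± 0.13. Its lowest Npc1-/- mouse lay within the Npc1+/+ range. Rrm2, the regulated subunit of ribonucleotide reductase, rose by 0.49 ± 0.16, and the midbody motor Kif23, the passenger subunit Cdca8 and the checkpoint kinase Bub1b by 0.34 to 0.43. None of the 10 licensing genes passed (median 0.34), and Cdk1 (0.38 ± 0.16, adjusted p = 0.128) and Mcm5 (0.22 ± 0.17, 95% interval -0.13 to 0.56) did not.

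The 4 Npc1-/- mice differed widely at 3 weeks in the replication genes. Their means were 6.38, 6.61, 7.19 and 7.15, against 6.62, 6.60, 6.41 and 6.61 in the Npc1+/+ mice. Mice 3 and 4 stood above all Npc1+/+ mice and mouse 1 below them. The helicase subunit gene Mcm6 showed the same spread, with 5.68, 6.53, 7.68 and 7.59 in Npc1-/- mice, against 6.34, 6.30, 5.80 and 6.67 in Npc1+/+ mice. There were 17 genes past the threshold without Npc1-/- mouse 1, 5 without mouse 3, 6 without mouse 4, 6 without Npc1+/+ mouse 3 and 6 with only the 3-week mice in the fit. Without the arrays with pancreas or muscle signal it was 4. Mki67, Uhrf1 and Prc1 kept their calls and the licensing factor gene Cdc6 gained one (0.75, adjusted p = 0.0121). The other 7 did not pass, with Top2a at 0.68 (adjusted p = 0.0592), Pcna at an adjusted p of 0.086, Cdca8 at 0.135, Rrm2 at 0.154, Ect2 at 0.159, Bub1b at 0.172 and Kif23 at 0.203. Erythroid markers were higher in Npc1-/- mice at this age, 3 of 7 passing, with means of 6.21 to 6.93 against 5.67 to 5.98. Macrophage markers rose in 8 of 11, with means of 7.64 to 8.03 against 6.23 to 6.60, and fetal liver markers in 2 of 5. The part of these cells in the result was not tested.

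At 5 weeks most of the genes that passed lay outside the replication roles. Among the 48 genes 17 rose and 1 fell (37.5%), where 7.39% of all genes passed, 5.68% higher and 1.72% lower. Among those that rose 15 were outside replication. The per-mouse means of the genes outside replication were 5.11 to 5.56 in Npc1-/- mice, against 4.81 to 5.09 in Npc1+/+ mice. Those of the replication genes were 6.47 to 6.82 against 6.28 to 6.70, and overlapped. The replication means include Tk1 (7.63 against 8.14) and Mcm10, which were lower in Npc1-/- mice. Mki67 was 6.04, 6.95, 6.66 and 6.20 in Npc1-/- mice, against 5.70, 5.73, 5.46 and 5.21 in Npc1+/+ mice. The groups did not overlap (0.94 ± 0.16, adjusted p = 3.34e-05). Top2a was 5.92, 6.38, 6.56 and 5.68 in Npc1-/- mice, against 5.58, 5.44, 4.83 and 5.02 in Npc1+/+ mice. These did not overlap either (0.92 ± 0.17). Cdk1, the kinase that starts mitosis, was 6.22, 6.72, 6.81 and 6.23 in Npc1-/- mice, against 5.68, 6.26, 5.61 and 5.46 in Npc1+/+ mice, where mouse 2 reached the lower 2 of the Npc1-/- mice (0.74 ± 0.16). The cyclins Ccna2 (0.81 ± 0.16) and Ccnb2 (0.60 ± 0.14) rose with it. Spindle and cytokinesis genes rose in 6 of 8, led by Prc1 (0.66 ± 0.16) and Racgap1 (0.63 ± 0.14), mitotic kinases in 3 of 7, and licensing genes in 2 of 10, with Mcm7 at 0.60 ± 0.15 and Mcm3 at 0.59. The other 8 genes that rose lay between 0.35 (Kif23) and 0.58 (the checkpoint kinase gene Bub1). Pcna (0.36 ± 0.13, adjusted p = 0.0714), Rrm2 (0.43 ± 0.16, adjusted p = 0.0927) and Mcm5 (0.24 ± 0.17) did not pass. With only the 5-week mice in the fit 8 genes passed. Mki67, Top2a, Cdk1, Racgap1, Bub1, Mcm7 and Mcm3 were the 7 that kept their calls, and Pcna gained a call (adjusted p = 0.0349). Mcm7, Mcm3 and Pcna are replication genes, so a lead of the other genes was not seen in that fit. The 11 calls lost were those of Ccna2 (adjusted p = 0.0551), Ccnb2 (0.125), Prc1 (0.12), Mcm10 (0.0994), Aurka, Ttk, Cenpe, Kif11, Kif20a, Kif23 and Tpx2.

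The gene that fell at 5 weeks was Mcm10, a helicase activator, at 7.07, 6.33, 6.54 and 6.42 in Npc1-/- mice against 6.79, 7.34, 6.96 and 7.51 in Npc1+/+ mice. Npc1-/- mouse 1 overlapped the Npc1+/+ range (-0.56 ± 0.18, adjusted p = 0.043, and 0.0523 without the arrays with pancreas or muscle signal, where Mcm3 did not pass either at 0.0512). The arrays left out there were of other ages, and the 5-week arrays with smaller pancreas signal were kept. Without Npc1-/- mouse 2, the highest of its group for Mki67, Ccna2 and Ccnb2, 7 genes passed, and without mouse 3 there were 10. Beyond the 48 genes, 11 of 28 further mitosis genes rose and 0 fell, led by the spindle checkpoint gene Mad2l1 (0.78 ± 0.18), the microtubule regulator Stmn1 (0.73 ± 0.13) and the condensin gene Smc4 (0.61 ± 0.12). Of 22 further replication genes only Dbf4, which activates the Cdc7 kinase, rose (0.68 ± 0.15). Macrophage markers rose in 7 of 11, with means of 7.94 to 8.50 against 6.31 to 6.47. Erythroid markers did not pass in any of 7, with means of 5.52 to 5.89 against 5.56 to 5.84.

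**Figure D3:**
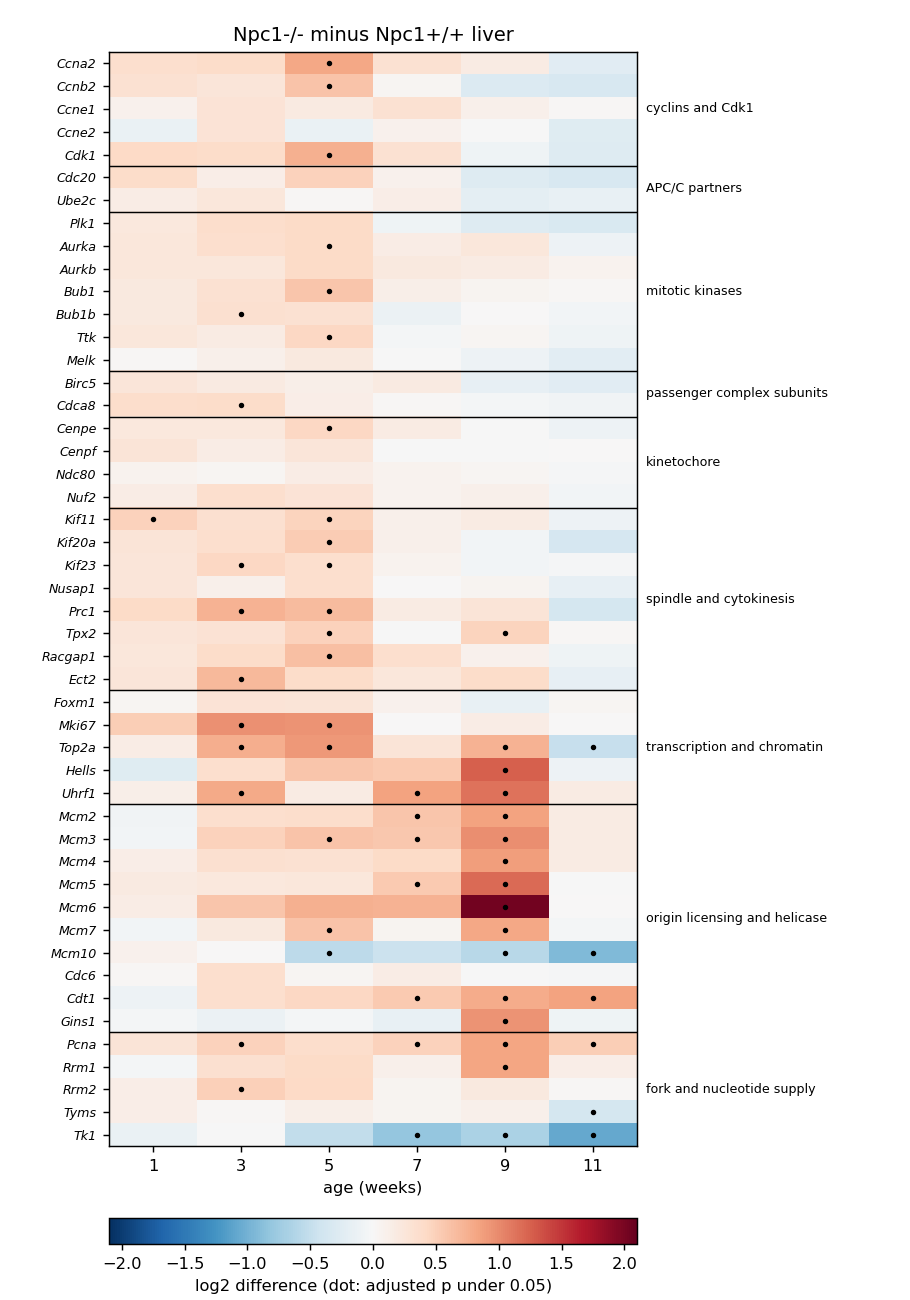
Log2 difference of Npc1-/- minus Npc1+/+ liver for each of the 48 genes (rows, grouped by role) at 6 ages in weeks (columns), with a dot where the adjusted p was under 0.05. Dots lie mostly in the mitotic rows at 5 weeks and mostly in the replication rows at 9 weeks, where Mcm6 reaches 2.03.

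At 7 weeks none of the 28 genes of the cyclin, kinase, kinetochore and spindle roles passed. In all, 6 of the 48 genes rose and 1 fell (14.6%), near the 15.5% of all genes that passed, 8.88% higher and 6.65% lower. The genes that rose were Uhrf1 (0.84 ± 0.19) and the replication genes Mcm2 (0.59 ± 0.16), Mcm3, Mcm5 (0.55 ± 0.17), the licensing factor Cdt1 (0.54 ± 0.18) and Pcna (0.49 ± 0.13). Uhrf1 was 5.57, 5.07, 5.56 and 4.86 in Npc1-/- mice, against 4.68, 4.27, 4.40 and 4.34 in Npc1+/+ mice, with no overlap. Tk1, the thymidine kinase of the salvage pathway, fell and was 7.48, 7.37, 6.93 and 7.30 in Npc1-/- mice, against 8.48, 7.79, 8.07 and 7.96 in Npc1+/+ mice (-0.81 ± 0.19, adjusted p = 0.00127). No Npc1-/- mouse reached an Npc1+/+ mouse. Mki67 was level at 5.43 in Npc1-/- and 5.42 in Npc1+/+ liver (0.01 ± 0.16). Without Npc1-/- mouse 3 the count was 4.

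At 9 weeks the replication genes of Npc1-/- liver stood high, while most of the mitotic genes among the 48 did not differ past the threshold. Of the 48 genes 14 rose and 2 fell (33.3%), where 22.0% of all genes passed, 11.6% higher and 10.4% lower. In the replication roles 10 of 15 rose and 2 fell, with a median of 0.82, and in the other roles 4 of 33 rose, with a median of 0.04. The 4 were Hells, Uhrf1 and Top2a of the chromatin genes and the spindle assembly factor Tpx2. Mcm6 was 7.14, 7.46, 7.29 and 7.84 in Npc1-/- mice, against 4.98, 5.55, 5.34 and 5.76 in Npc1+/+ mice. The gap between the groups was wider than either group's own range, and the difference of 2.03 ± 0.29 (adjusted p = 3.48e-07) was the largest of these genes at any age. Mcm5 was 6.73, 7.34, 7.19 and 7.50 in Npc1-/- mice, against 5.93, 6.00, 5.76 and 6.28 in Npc1+/+ mice (1.20 ± 0.17, adjusted p = 3.64e-07). Pcna was 9.32, 9.34, 9.23 and 9.34 in Npc1-/- mice, against 8.45, 8.59, 8.43 and 8.47 in Npc1+/+ mice (0.82 ± 0.13). In both the groups lay apart.

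All 6 subunits of the MCM2-7 ring rose at 9 weeks, with Mcm3 at 0.98 ± 0.19, Mcm4 at 0.88 ± 0.19, Mcm2 at 0.84 ± 0.16 and Mcm7 at 0.82 ± 0.15 beside Mcm5 and Mcm6. With them rose Gins1 of the active helicase (0.94 ± 0.18), Cdt1 (0.78 ± 0.18) and the large reductase subunit Rrm1 (0.83 ± 0.16). The chromatin remodeller Hells was 5.95, 5.93, 5.64 and 6.38 in Npc1-/- mice, against 4.38, 5.05, 4.65 and 4.80 in Npc1+/+ mice (1.25 ± 0.24), and Uhrf1 rose by 1.13 ± 0.19. By contrast Mki67 was 5.08, 4.93, 5.35 and 5.29 in Npc1-/- mice, against 5.39, 4.68, 4.80 and 5.15 in Npc1+/+ mice. These overlap (0.15 ± 0.16, 95% interval -0.16 to 0.47). Cdk1 was 5.48, 5.83, 5.88 and 6.14 in Npc1-/- mice, against 5.89, 5.84, 5.84 and 6.15 in Npc1+/+ mice, also overlapping (-0.10 ± 0.16, 95% interval -0.41 to 0.22). Rrm2 did not pass (0.20 ± 0.16). Tk1 (-0.67 ± 0.19) and Mcm10 (-0.58 ± 0.18) fell. The count was 15 or 16 whichever mouse was left out.

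Outside the 48 genes, members of both lists rose at 9 weeks. Of 22 further replication genes 12 rose and 0 fell, led by the primase gene Prim1 (0.99 ± 0.20), the ligase gene Lig1 (0.89 ± 0.16) and the polymerase gene Pole (0.84 ± 0.18). Of 28 further mitosis genes 8 rose and 0 fell, with Mad2l1 (1.13 ± 0.18) and the condensin gene Smc2 (0.69 ± 0.13) first, where 1 of the 28 genes of the cyclin, kinase, kinetochore and spindle roles had risen among the 48. The pocket protein gene Rbl1 rose by 1.11 ± 0.16, and the kinase inhibitor gene Cdkn1c, which encodes p57, rose by 1.69 ± 0.14. Cdkn1c had also risen at 7 weeks (1.03 ± 0.14), together with the cyclin D1 gene Ccnd1 (1.51 ± 0.26). Macrophage markers rose in 11 of 11 at 9 weeks, with means of 9.26 to 9.60 against 6.38 to 6.52, and erythroid markers fell in 2 of 7, with means of 5.29 to 5.56 against 5.48 to 5.80. Stellate cell markers rose in 4 of 6 and neutrophil markers in 3 of 8, and endothelial markers fell in 5 of 6. The part of these cells in the result was not tested.

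**Figure D4:**
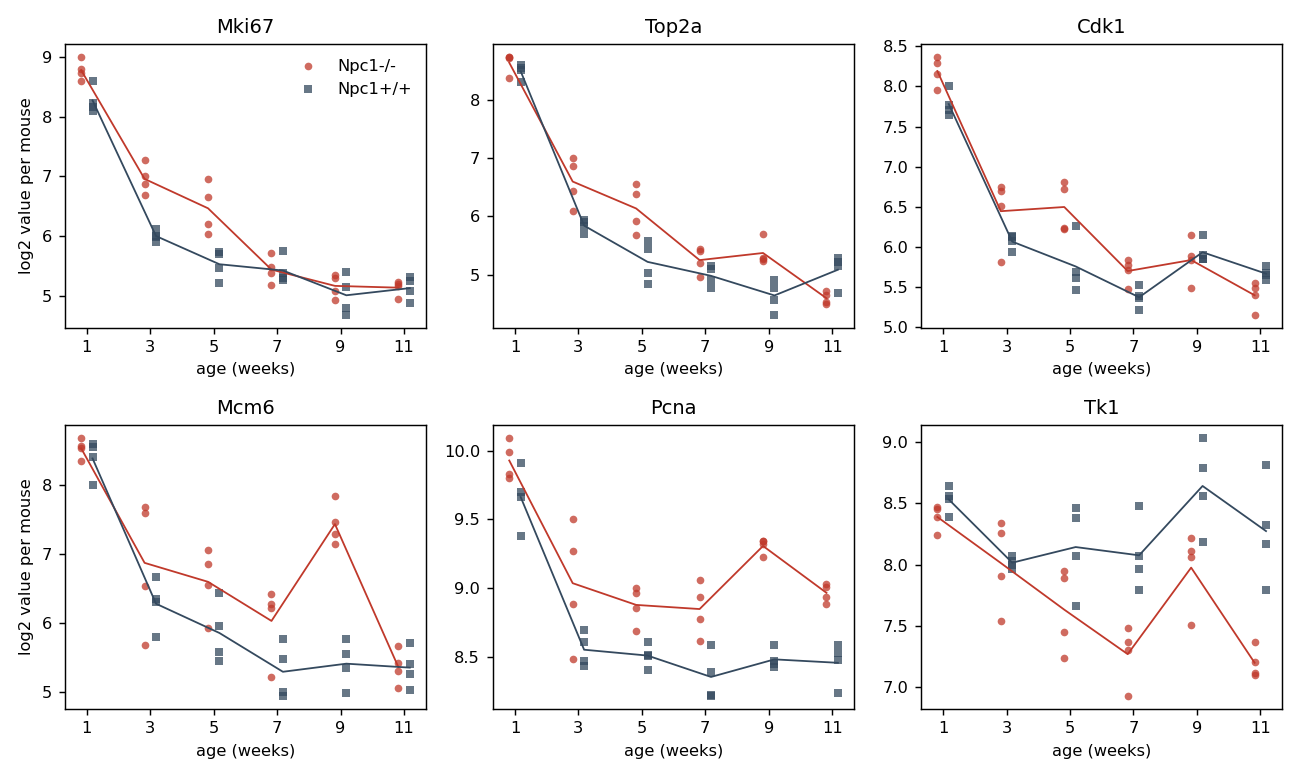
Log2 value per mouse (y axis) of Mki67, Top2a, Cdk1, Mcm6, Pcna and Tk1 against age in weeks, with each mouse as a point and group means joined. Mki67 is higher in Npc1-/- mice at 3 and 5 weeks, Mcm6 at 9 weeks, and Tk1 is lower in Npc1-/- mice from 7 weeks on.

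At 11 weeks most of the genes that were high at 9 weeks were not. Across the 48 genes 2 rose and 4 fell (12.5%), where 25.3% of all genes passed, 12.7% higher and 12.6% lower. Mcm6 was 5.66, 5.42, 5.05 and 5.30 in Npc1-/- mice, against 5.71, 5.26, 5.40 and 5.03 in Npc1+/+ mice, and the groups overlapped fully. Mki67 (0.01 ± 0.16), Mcm5 (-0.00 ± 0.17, 95% interval -0.35 to 0.34) and Rrm2 (0.03 ± 0.16) did not pass. Cdt1 was 6.74, 6.92, 7.13 and 6.50 in Npc1-/- mice, against 6.17, 5.99, 6.08 and 5.67 in Npc1+/+ mice, with no overlap (0.85 ± 0.18, adjusted p = 0.000298). Pcna was 9.01, 8.94, 9.03 and 8.89 in Npc1-/- mice, against 8.59, 8.48, 8.24 and 8.53 in Npc1+/+ mice, again apart (0.51 ± 0.13). Tk1 was 7.12, 7.21, 7.37 and 7.10 in Npc1-/- mice, against 8.32, 8.17, 8.81 and 7.79 in Npc1+/+ mice (-1.07 ± 0.19, adjusted p = 1.09e-05). Mcm10 (-0.93 ± 0.18), Top2a (-0.49 ± 0.17) and the thymidylate synthase gene Tyms (-0.37 ± 0.11) also fell. With each array centred on its median 11 genes passed, 2 higher and 9 lower, and with only the 2 groups in the fit 10 did.

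Macrophage markers rose in 11 of 11 at 11 weeks, with means of 9.49 to 9.63 in Npc1-/- mice against 6.42 to 6.56 in Npc1+/+ mice. Markers of resident Kupffer cells, the liver's own macrophages, fell in 5 of 6, with means of 5.99 to 6.56 against 7.63 to 7.67. Erythroid markers fell in 1 of 7, with means of 5.15 to 5.43 against 5.51 to 5.60. Neutrophil markers rose in 7 of 8 and stellate cell markers in 3 of 6, and endothelial markers fell in 4 of 6 and rose in 1. The part of these cells in the result was not tested.

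Tk1, Top2a and Pcna each rested on a choice of probe set. The other Tk1 probe set averaged 6.40 in Npc1-/- and 7.83 in Npc1+/+ liver at 11 weeks. The other Pcna probe set averaged 8.95 in Npc1-/- and 8.44 in Npc1+/+ liver, close to the one used. The other Top2a probe set lay near the array's low end, with means of 2.35 to 2.80 over the 18 groups, and showed no fall after 1 week like that of the one used. At 11 weeks Cdkn1c was 9.63 in Npc1-/- and 7.06 in Npc1+/+ liver (2.57 ± 0.14, adjusted p = 2.71e-20). Of further mitosis genes 1 rose and 2 fell, with the kinetochore gene Spc25 at -1.09 ± 0.18, and the repressor E2f8 fell by 1.16 ± 0.16.

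Whether the genotype difference changed with age was tested across all 6 ages. It varied for 21 of the 48 genes (43.8%), where 16.9% of all genes passed. Top2a led (F = 9.31, adjusted p = 0.000101), followed by Mki67 (F = 7.71), Ccnb2, Mcm5, Mcm6 and Mcm7, while Pcna (adjusted p = 0.217) and Rrm2 (adjusted p = 0.412) did not pass. Averaged over the ages 30 genes rose and 2 fell (66.7%), where 36.1% of all genes passed, 17.8% higher and 18.3% lower. Mcm6 (0.71 ± 0.12), Uhrf1 (0.54 ± 0.08) and Pcna (0.49 ± 0.05) were highest, and Tk1 (-0.53 ± 0.08) and Mcm10 (-0.40 ± 0.07) fell.

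From 3 to 11 weeks the Npc1-/- livers lost more of these transcripts than the Npc1+/+ livers. In Npc1-/- liver 40 genes fell and 0 rose (median -0.61), where 17.8% of all genes passed, 10.4% higher and 7.40% lower. In Npc1+/+ liver 11 fell and 1, Mcm10, rose (median -0.24), where 5.81% of all genes passed, 3.60% higher and 2.21% lower. The difference between these changes passed for 10 genes, all negative, where 10.7% of all genes passed, 5.68% with a positive and 4.98% with a negative difference. Top2a had the largest (-1.25 ± 0.24, adjusted p = 0.00022), then Prc1 (-1.09 ± 0.23), Tk1 (-1.07 ± 0.27), Mki67 (-0.95 ± 0.22), Mcm10 (-0.94 ± 0.25) and Ect2 (-0.85 ± 0.28). Without the arrays with pancreas or muscle signal 6 genes passed. Calls were lost by Ect2, Cdk1 (-0.65 ± 0.22), Kif20a (-0.71 ± 0.22), Ccnb2 and Kif23, and Cdc6 gained one (-0.78, adjusted p = 0.0373). The erythroid markers moved the same way, 4 of 7 passing and all 4 negative, with the heme synthesis gene Alas2 at -2.17 ± 0.33. Macrophage markers passed in 10 of 11, all positive, and resident Kupffer cell markers in 4 of 6, all negative. Macrophage marker means in Npc1-/- mice were 9.49 to 9.63 at 11 weeks, against 7.64 to 8.03 at 3 weeks. The part of these cells in the result was not tested. The count was 5 without Npc1+/+ mouse 2 at 3 weeks and without Npc1+/+ mouse 1 at 11 weeks. It was 6 without Npc1-/- mice 3 or 4 or Npc1+/+ mouse 3 at 3 weeks, or without Npc1-/- mouse 3 or Npc1+/+ mouse 2 at 11 weeks. In Npc1+/+ liver alone the count of 12 became 6 without mouse 4 at 3 weeks. It was also 6 without the arrays with pancreas or muscle signal, where the rise of Mcm10 did not pass (adjusted p = 0.0744).

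The 9-week rise was set against its neighbours in 2 comparisons chosen after the values were seen. Between 9 and 11 weeks the genotype difference fell for 7 genes, where 1.72% of all genes passed (0.502% positive, 1.21% negative), with Mcm6 (-2.02 ± 0.41, adjusted p = 0.00288), Hells (-1.36 ± 0.34), Top2a (-1.22 ± 0.24), Mcm5 (-1.20 ± 0.24), Gins1 (-1.02 ± 0.26), Uhrf1 (-0.96 ± 0.27) and Mcm7 (-0.86 ± 0.21). Uhrf1 did not pass without the arrays with pancreas or muscle signal (adjusted p = 0.059), although these were of younger mice and the difference itself was the same. The count was 4 without Npc1-/- mice 2 or 4 or Npc1+/+ mouse 3 at 9 weeks, or without Npc1+/+ mouse 1 at 11 weeks. Between 7 and 9 weeks it rose for Gins1 alone (1.09 ± 0.26, adjusted p = 0.0483), where 0.381% of all genes passed (0.206% positive, 0.176% negative), and in 11 of 16 fits with 1 mouse left out, and with only the groups compared in the fit, no gene passed. These left out Npc1-/- mouse 1, 2 or 4 or Npc1+/+ mouse 1, 3 or 4 at 9 weeks, or Npc1-/- mouse 1, 3 or 4 or Npc1+/+ mouse 3 or 4 at 7 weeks, and without Npc1+/+ mouse 1 at 7 weeks 2 genes passed. Both comparisons share the 9-week mice. Age and the day a mouse was taken cannot be told apart, since each group was collected at 1 age and the labels give no dates.

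In Npc1-/- liver after the first week the genes reached their highest group mean at different ages by role. Origin licensing genes peaked at 9 weeks for 6 of 10. Fork and nucleotide genes were split, with 2 of 5 highest at 9 weeks and 2 at 3 weeks. Of the 28 genes outside replication and chromatin all peaked at 3 or 5 weeks, and of the 5 chromatin genes 4 peaked at 3 weeks and Hells at 9. Cdt1 alone was highest at 11 weeks. These peaks only rank group means, and whether a peak differed from the next highest age was not tested.

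In adult mice the Npc1 oligo moved few of these genes. Among the 48 genes 1 rose and 2 fell (6.25%), where 12.7% of all genes passed, 7.80% higher and 4.88% lower. The per-mouse means of the replication genes were 6.15 to 6.27 under the Npc1 oligo, against 6.32 to 6.41 under the control oligo. These means include Tk1 and Mcm10, the genes that fell. Tk1 was 7.42, 7.18, 7.30, 7.18 and 7.16 under the Npc1 oligo, against 8.16, 8.23, 8.27, 8.56 and 8.24 under the control oligo. The groups lay far apart (-1.05 ± 0.10, adjusted p = 8.29e-09). The other Tk1 probe set averaged 6.64 under the Npc1 oligo and 7.59 under the control oligo. Mcm10 fell by 0.47 ± 0.12 (adjusted p = 0.00792). The cyclin B2 gene Ccnb2 was 5.54, 5.69, 6.08, 5.58 and 5.57 under the Npc1 oligo, against 5.41, 5.36, 5.11, 5.29 and 5.26 under the control oligo, with no overlap (0.40 ± 0.10, adjusted p = 0.00545). Mki67 (0.27 ± 0.13, adjusted p = 0.201), Top2a (0.21 ± 0.16), Cdk1 (0.12 ± 0.12), Pcna (0.03 ± 0.09, 95% interval -0.15 to 0.21), Rrm2 (-0.04 ± 0.14) and Mcm5 (-0.11 ± 0.09) did not pass. Macrophage markers rose in 8 of 11, with means of 8.05 to 8.93 against 7.07 to 7.31.

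The lifelong loss and the knockdown were compared by testing the 11-week genotype difference minus the oligo difference, in a fit of all 78 arrays. It passed for 5 of the 48 genes, where 17.4% of all genes passed, 7.98% with a positive and 9.40% with a negative difference. Cdt1 (0.79 ± 0.22) and Pcna (0.49 ± 0.16) were higher in the genotype comparison, and Kif20a (-0.58 ± 0.20), Top2a (-0.70 ± 0.24) and Ccnb2 (-0.74 ± 0.18) were lower. The count was 3 without Npc1-/- or Npc1+/+ mouse 1 at 11 weeks, without control oligo mouse 2 or without Npc1 oligo mouse 3. The 2 sets differ in age and mouse line as well, and the part of either was not tested.

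Among mice given NAC, those with the Npc1 oligo had less of several replication transcripts. Across the 48 genes 10 fell and 0 rose (20.8%), where 14.5% of all genes passed, 6.23% higher and 8.32% lower. In the replication roles 7 of 15 fell, with a median of -0.28. Mcm10 was 6.25, 6.52, 6.37, 6.21 and 6.20 with the Npc1 oligo and NAC, against 7.03, 7.66, 6.70, 7.18 and 6.94 with the control oligo and NAC (-0.79 ± 0.12, adjusted p = 1.44e-05). Mcm6 was 5.04, 5.21, 5.06, 5.62 and 5.36 with the Npc1 oligo and NAC, against 5.85, 5.91, 5.96, 6.19 and 6.04 with the control oligo and NAC (-0.73 ± 0.13). In both genes the groups lay apart. Hells (-0.60 ± 0.11), Tk1 (-0.58 ± 0.10), Rrm2 (-0.44 ± 0.14), Mcm5 (-0.43 ± 0.09), Mcm3 (-0.41 ± 0.11) and Gins1 (-0.40 ± 0.11) fell as well. Of 22 further replication genes 8 fell and 1 rose, with the clamp loader gene Rfc3 (-0.59 ± 0.11) and the polymerase gene Pola1 (-0.50 ± 0.08) lowest, while Ccnd1 rose by 0.99 ± 0.16. Macrophage markers rose in 7 of 11 and fell in 1.

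**Figure D5:**
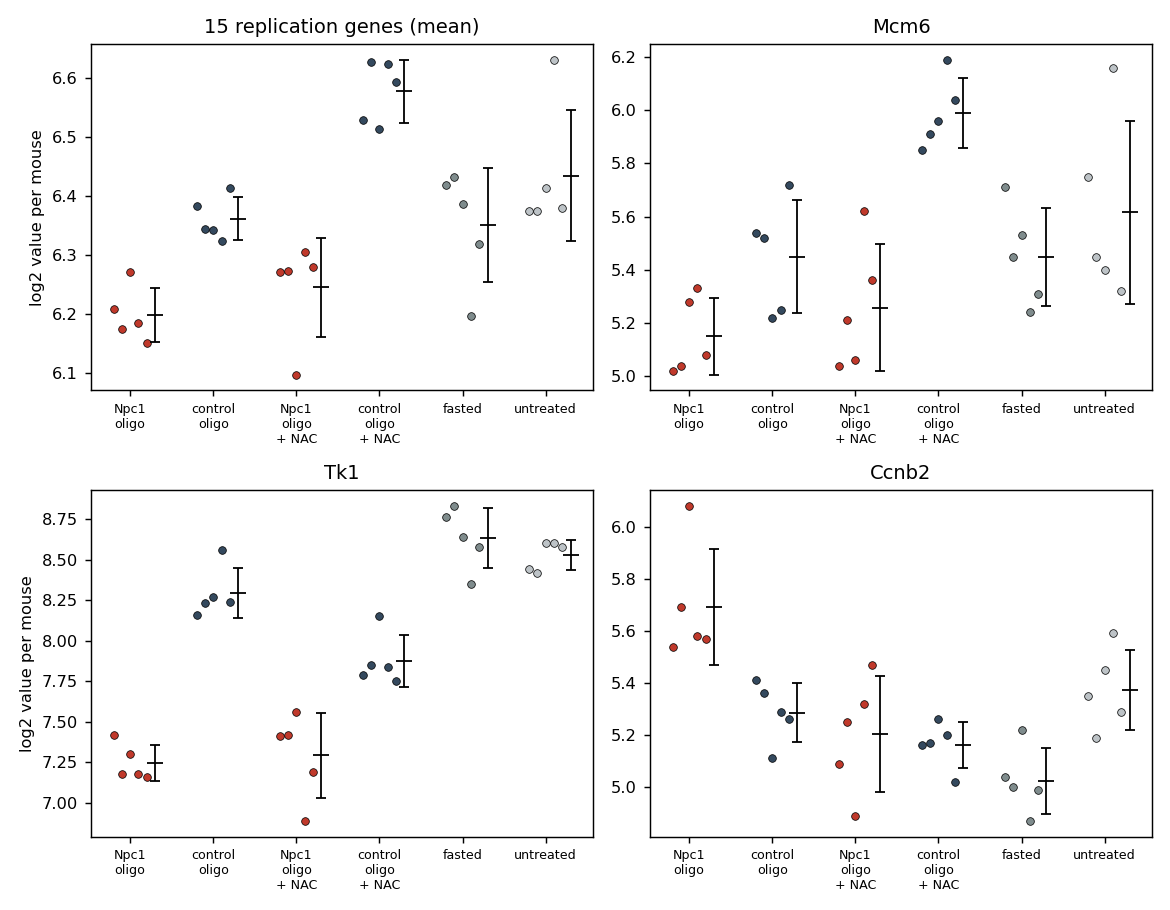
Log2 value per mouse (y axis) of the mean of the 15 replication genes, of Mcm6, of Tk1 and of Ccnb2 in the 6 groups of 12-week mice, with bars for mean ± SD (n = 5). The 5 mice given the control oligo with NAC have replication means of 6.51 to 6.63, against 6.10 to 6.31 with the Npc1 oligo and NAC. Without NAC the means are 6.32 to 6.41 with the control oligo, against 6.15 to 6.27 with the Npc1 oligo.

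Among mice given the control oligo, those with NAC had more of several replication transcripts. Of the 48 genes 5 rose and 1 fell (12.5%), where 4.23% of all genes passed, 2.85% higher and 1.38% lower. Mcm6 was 5.85, 5.91, 5.96, 6.19 and 6.04 with NAC, against 5.54, 5.52, 5.22, 5.25 and 5.72 without it (0.54 ± 0.13, adjusted p = 0.0124). Every mouse given NAC lay above every mouse that was not. Uhrf1 (0.45 ± 0.11), Mcm3 (0.43 ± 0.11), Hells (0.38 ± 0.11) and Mcm2 (0.31 ± 0.09) also rose, and Tk1 was 7.79, 7.85, 8.15, 7.84 and 7.75 with NAC, against 8.16, 8.23, 8.27, 8.56 and 8.24 without it (-0.42 ± 0.10). Rrm2 (0.43 ± 0.14, adjusted p = 0.0649) and Mcm5 (0.28 ± 0.09, adjusted p = 0.0628) did not pass. Ccnd1 fell by 0.76 ± 0.16. Neutrophil markers rose in 3 of 8 and macrophage markers in 0 of 11. Npc1 itself fell by 1.03 ± 0.15 in the same comparison, and the part of this in the result was not tested. No gene passed at an adjusted p of 0.01, and the count was 2 without control oligo mouse 4 and 3 without mouse 5 of the group given both.

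Among mice given the Npc1 oligo, no replication gene passed between those with and without NAC. Across the 48 genes 2 fell and 0 rose (4.17%), where 3.27% of all genes passed, 1.30% higher and 1.96% lower. Ccnb2 was 5.09, 5.25, 4.89, 5.32 and 5.47 with NAC, against 5.54, 5.69, 6.08, 5.58 and 5.57 without it, with no overlap (-0.49 ± 0.10, adjusted p = 0.00295). The kinesin gene Kif20a fell by 0.38 ± 0.11 (adjusted p = 0.0449). The count was 1 without mouse 2, 3 or 5 given NAC, or mouse 1, 3 or 4 not given it, and 0 with only the 2 groups in the fit. The effect of NAC differed between the oligos for Hells alone (-0.58 ± 0.15, adjusted p = 0.0342), where 2.09% of all genes passed (0.552% positive, 1.53% negative), and 10 of 20 fits with 1 mouse left out called no gene, nor did the fit of only the groups compared. These were the fits without mouse 1, 3 or 5 of the Npc1 oligo with NAC, mouse 1 or 3 of the Npc1 oligo, mouse 1 or 5 of the control oligo with NAC, and mouse 1, 2 or 4 of the control oligo. The count was 2 without mouse 4 of the Npc1 oligo with NAC or mouse 3 of the control oligo with NAC. For Mcm6 and the other 14 replication genes of the 48 a different response was not shown. Of the 22 further replication genes Pola1 passed (-0.48 ± 0.12, adjusted p = 0.0268).

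Fasting moved none of the 48 genes past the threshold in limma, where 0.236% of all genes passed, 0.0903% higher and 0.145% lower. At an unadjusted p under 0.05 there were 8, and with array weights 2 fell. Ccnb2 was 5.04, 5.00, 5.22, 4.87 and 4.99 in fasted mice, against 5.35, 5.19, 5.45, 5.59 and 5.29 in untreated mice (-0.35, adjusted p = 0.191). The groups overlap in 1 mouse of each. The control oligo against no treatment moved Tyms only (-0.27 ± 0.09, adjusted p = 0.0468), where 16.0% of all genes passed (4.49% higher, 11.5% lower), and Ccnd1 fell by 0.67 ± 0.16. That count was 0 without control oligo mouse 2 or 5 or untreated mouse 2, 3 or 4, 2 without control oligo mouse 3 or untreated mouse 1, and 3 without control oligo mouse 4.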

How the data were processed

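Liver RNA of 78 mice was measured on an Affymetrix mouse gene array. The deposited values are log2 expression per probe set, made by the authors with RMA in Partek 6.5, per the submitters' processing notes. The genome build is not given in the sources used here. Of 35556 probe sets, 21789 carried 1 symbol in the platform annotation, 1621 several and 12146 were not listed there. The probe set with the highest mean was kept per gene, which left 19938 genes. All of them were fitted with limma 3.58.1 in R 4.3.3 on group means, with no filter on low values, in separate fits for the 48 arrays of the age series and the 30 of the 12-week set. Where both sets were compared, 1 fit of all 78 arrays was used. P-values were adjusted by Benjamini-Hochberg over all genes at a threshold of 0.05. The code was tested on simulated data. The named genes are Mki67, Top2a, Cdk1, Mcm5, Pcna and Rrm2 in each comparison, up to 8 of the highest and 8 of the lowest past the threshold, and at most 3 per further list. The members and all gene lists were chosen with earlier results of these data known. The replicate numbers were not taken to pair the mice, as correlations of deviations from the group mean between same-numbered mice ran from -0.302 to 0.226. This check cannot exclude a pairing. The labels do not give litters, and litter was not in the fits. Alternatives changed the threshold, the filter, the probe set, the scaling, array weights, the samples in the fit and the replicate block, and left out each mouse in turn.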

Additional observations from a re-analysis of the deposited data

Results flagged for a closer look

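Single mice stood far from the rest of their group in 15 of 162 tests of the highest or lowest value, and chance flags about 1 in 20 groups. For the mean of all 48 genes, Npc1+/+ mouse 3 at 7 weeks was high at 5.30 and untreated mouse 4 at 5.40. Npc1-/- mouse 4 at 11 weeks was low at 5.06 and mouse 3 given the Npc1 oligo and NAC at 4.99. For the mean of the 15 replication genes, Npc1+/+ mouse 2 at 1 week was low at 7.51, Npc1+/+ mouse 3 at 3 weeks at 6.41 and mouse 3 given the Npc1 oligo and NAC at 6.10, while untreated mouse 4 was high at 6.63.

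For single genes, Top2a was low in Npc1-/- mouse 4 at 1 week at 8.37 and high in Npc1-/- mouse 4 at 9 weeks at 5.70. Cdk1 was high in Npc1+/+ mouse 4 at 9 weeks at 6.15. Mcm5 was low in Npc1-/- mouse 2 at 1 week at 7.76. Rrm2 was high in Npc1-/- mouse 3 at 11 weeks at 5.45, low in Npc1+/+ mouse 3 at 5 weeks at 4.99 and low in mouse 3 given the control oligo and NAC at 5.32.

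Differences that themselves differed between groups, each by a test of that difference, numbered 21 genes for genotype across the 6 ages, 10 for genotype between 11 and 3 weeks, 7 between 11 and 9 weeks and 1 between 9 and 7 weeks. The lifelong and adult loss of Npc1 differed for 5 genes, and the effect of NAC differed between the oligos for 1.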

How the results depend on the processing

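Of 6192 fits of single named genes under the alternatives, 0 turned a call to the opposite direction, 365 lost a call and 25 gained one. A change of sign in a gene without a call, as in one with a difference near 0, is not part of these counts. Counts below are of the 48 genes past the threshold. With a difference of at least 1 log2 unit also required, the genotype count was 0 at 1, 3, 5 and 7 weeks, 4 at 9 and 1 at 11 weeks, and 0 for the mean of the ages. It was 0 for 11 against 3 weeks in Npc1+/+ liver, 8 in Npc1-/- liver and 3 for their difference. It was 1 for the oligo alone, and 0 for the oligo with NAC, NAC with either oligo, the NAC by oligo interaction, the control oligo and lifelong against adult loss. At an adjusted p of 0.01 the counts were 6, 10 and 4 at 3, 5 and 7 weeks, 10 for the difference across ages, 5 for 11 against 3 weeks in Npc1+/+ liver and 5 for that interaction. They were 6 for the oligo with NAC, 1 for NAC with the Npc1 oligo, 2 for lifelong against adult loss, 3 for 11 against 9 weeks, and 0 for NAC with the control oligo, the NAC interaction, the control oligo and 9 against 7 weeks. With only the groups compared in the fit they were 6, 8 and 10 at 3, 5 and 11 weeks, 2 for the control oligo, and 0 for NAC with the Npc1 oligo, the NAC interaction and 9 against 7 weeks. A filter at the median gave 2 at 1 week, 1 for NAC with the Npc1 oligo, 0 for the NAC interaction and 2 for the control oligo. A filter at the 60th percentile gave 2 at 1 week, 4 for the oligo with NAC and 0 for NAC with the Npc1 oligo. Array weights gave 17 at 3 weeks, 2 for fasting and 3 for the control oligo. Quantile normalization gave 2 at 1 week, and so did leaving out Npc1+/+ mice 3 and 4. Median centring gave 11 at 11 weeks, 2 higher and 9 lower, and moved the median of all genes by up to 0.11. Averaging the probe sets per gene gave 2 for the control oligo. Without the arrays with pancreas or muscle signal, counts were 4 at 3 weeks, 6 for 11 against 3 weeks in Npc1+/+ liver and 6 for the interaction. The 12-week set has no such array, so this gave no value there. The cause of these changes was not tested. With the replicate block the counts were 11 at 3 weeks, 19 for the difference across ages, 11 for 11 against 3 weeks in Npc1+/+ liver, 9 for that interaction, 5 for NAC with the control oligo, 6 for 11 against 9 weeks and 0 for 9 against 7 weeks. With it calls were lost by Mcm3 and Kif23 in 2 comparisons each and by Mcm6, Mcm2, Tyms, Gins1 and Uhrf1 in 1 each, and Kif11 and Prc1 gained 1 each.

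With each mouse left out in turn the genotype counts ran from 0 to 2, 5 to 17, 7 to 21, 4 to 9, 15 to 16 and 4 to 7 from the youngest to the oldest age, from 29 to 35 for the mean and from 15 to 25 across ages. From 1 to 3 weeks they ran from 45 to 46 in Npc1+/+ liver, 43 to 46 in Npc1-/- liver and 0 to 0 for the difference. From 3 to 11 weeks they ran from 6 to 11, 33 to 41 and 5 to 14 in the same order. They ran from 0 to 2 for 9 against 7 weeks and 4 to 7 for 11 against 9 weeks. In the 12-week set they ran from 3 to 4 for the oligo, 7 to 12 for the oligo with NAC, 2 to 9 for NAC with the control oligo, 1 to 2 with the Npc1 oligo, 0 to 2 for the NAC interaction, 0 to 0 for fasting, 0 to 3 for the control oligo and 3 to 6 for lifelong against adult loss. With 4 or 5 mice a group and many genes near the array's low end, small differences may be missed.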
